A study of Danio rerio with 4 samples.

Results

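The genes of central carbon metabolism were examined in hearts of tie1 mutant zebrafish (Danio rerio) and of their siblings. The genes are the rows of the deposited table annotated to the KEGG pathway for carbon metabolism, without the succinate dehydrogenase genes (names starting with sdh), and came to 107 of 16662 genes. RNA was measured in 4 libraries of pooled hearts, taken by manual dissection at 48 hpf (hours after fertilisation), 2 labelled tie1 KO and 2 labelled tie1 WT. All 4 carry the transgene Tg(kdrl:eGFP), in which the promoter of the VEGF receptor gene kdrl drives green fluorescent protein in endothelial cells. Controls are labelled as wild type but described in the design text as wild-type and heterozygous siblings, and are called siblings here. The sources used here give neither the mutant allele nor the pool size, and nothing says that replicates came from separate clutches, so p-values measure only the spread between these pools, which may be technical.

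Central carbon metabolism breaks glucose down to pyruvate in the cytosol by glycolysis, turns pyruvate that has entered mitochondria into acetyl-CoA by pyruvate dehydrogenase, and oxidises that in the citrate cycle. The pentose phosphate pathway branches off at glucose-6-phosphate and makes NADPH and ribose phosphate, and serine, glycine and folate enzymes branch off lower down and carry single-carbon units for nucleotide synthesis. Embryonic heart muscle is known to draw much of its ATP from glycolysis before it turns to fatty acids.

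The labels were checked first on tie1, an endothelial receptor tyrosine kinase gene, which had normalised values of 123 and 88 in mutant 1 and mutant 2, against 558 and 300 in sibling 1 and sibling 2. Both mutant libraries lay below both sibling libraries, with a log2 fold change of −1.97 ± 0.31 (SE, as for every log2 fold change here) and an adjusted p of 0.148 in limma. The normalised totals lay between 2154702 and 2648465, and mitochondrial ribosomal RNA took 43.4% and 37.6% of them in mutants and 32.9% and 30.4% in siblings. Values are whole numbers after a normalisation by the authors whose method the sources used here do not give, so the read depth behind a value is unknown. The median gene of the table stood at 24 or 25. Of markers that define heart tissue, myl7, a cardiac myosin light chain gene, had 3842 and 1966 in mutants and 3595 and 2469 in siblings. For cdh5, the gene of VE-cadherin of endothelium, the values were 1313 and 790 in mutants and 1883 and 1117 in siblings.

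Glycolysis, pyruvate dehydrogenase and citrate cycle genes mostly had lower values in the mutant hearts, while most tested pentose phosphate genes had higher ones and serine, glycine and folate genes lay on both sides. No gene of carbon metabolism passed an adjusted p under 0.05 in limma, and neither did any of the 12118 genes tested, which is 0% called. Of the 107 genes, 94 reached a mean of 10 across the libraries and were tested, and their smallest adjusted p was 0.388. In 65 of these 94 the mutant mean was lower on the log2 scale and in 29 it was higher, where 50.3% of all tested genes were lower and 49.7% higher. The median log2 fold change was −0.27, a fold of 0.828, against −0.00159 over all tested genes.

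For 44 of the 94 tested genes each mutant value was under each sibling value, which is 46.8% of them, against 18.3% of all tested genes. Each mutant value was over each sibling value in 7, or 7.45%, against 15.7% of all tested genes. Where the mean reached 50, 61.3% of the 62 of carbon metabolism were lower without overlap, against 22.4% of all 5411 genes with such a mean. At an unadjusted p under 0.05 in limma, 17 of the 94 were lower and 2 higher, where the same rule took 4.34% of all tested genes as lower and 2.61% as higher. This count of 19 in all came to 10 without mutant 1, 7 without mutant 2 and 6 without sibling 1, where the same threshold took 5.45%, 4.44% and 3.21% of all tested genes. Single genes depended on the libraries as well. With each of the 4 libraries left out in turn, 64 of the 94 kept their sign, 52 lower and 12 higher, and in 73 the log2 fold change moved by over 1.5 times at least once. Summed over the 107 genes, the normalised values were 10777 and 10132 in mutants and 14330 and 11818 in siblings. Per 1000000 of the total outside mitochondrial ribosomal RNA these sums came to 7195 and 6868 in mutants, and to 8853 and 7875 in siblings. Both ways of counting put both mutant libraries below both sibling libraries, and with 2 libraries in each group the smallest two-sided p of an exact permutation test is 0.333.

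**Figure D1:**
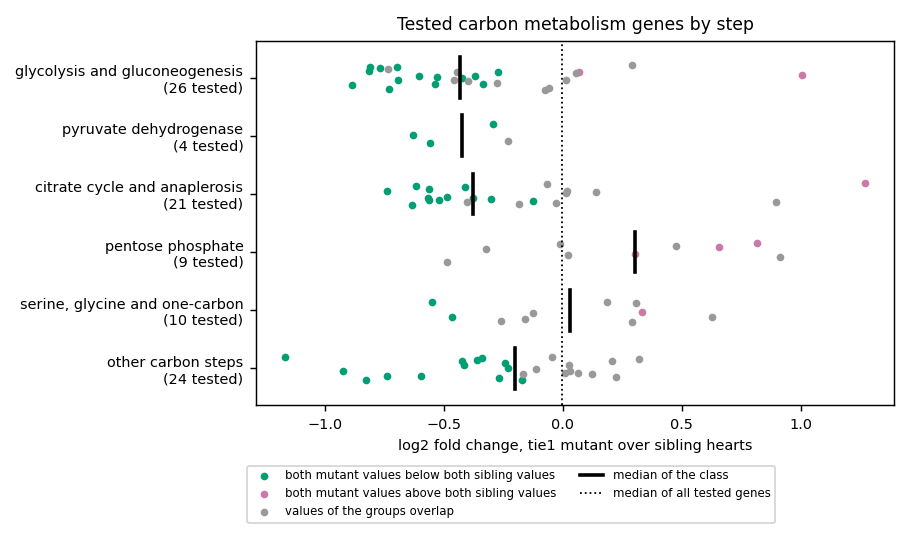
Log2 fold change (tie1 mutant over sibling hearts, x axis) of each of the 94 tested genes, by step of carbon metabolism, coloured by whether the values of the groups overlap. The bars are class medians, which lie at −0.43 for glycolysis, −0.42 for pyruvate dehydrogenase, −0.38 for the citrate cycle and 0.31 for the pentose phosphate genes, and the dotted line is the median of all tested genes.

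The pools hold several tissues, and fewer cells of a type cannot be told apart from less RNA per cell in bulk samples. Of all tested genes, 50.3% were lower in mutants and 18.3% were lower without overlap. Cardiomyocyte markers were lower in 9 of 10, but without overlap in 1. Several of the 9 differed little, such as myl7 at −0.12 and cmlc1 at −0.16. The 10 markers summed to 77661 and 48611 in mutants and 116300 and 72119 in siblings, which overlap. The ventricular myosin gene myh7 and the titin gene ttn.2 make up a large part of these sums. Endothelial and endocardial markers, without tie1 itself, were lower in 8 of 8 and without overlap in 4. Their sums overlapped, at 3254 and 2010 in mutants and 4853 and 3074 in siblings. Erythrocyte markers were lower without overlap in 14 of 14 rows, with sums of 5326 and 4971 in mutants and 13751 and 11843 in siblings. Fast skeletal muscle markers summed to 658 and 1155 in mutants and 1809 and 1881 in siblings, lower in 10 of 11 tested and without overlap in 7. No marker of these 4 lists was at 0 in any library. All 4 tissues use glycolysis, and the part of their content in the results below was not tested.

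In glycolysis and gluconeogenesis, 26 of 31 genes were tested, 21 with a lower and 5 with a higher mean in mutants. The groups did not overlap in 14 of the lower and 2 of the higher ones. These were 53.8% and 7.69% of the 26, against 18.3% and 15.7% of all tested genes. The median log2 fold change was −0.43, a fold of 0.741, and the library medians relative to the sibling mean were −0.38 and −0.57 in mutant 1 and mutant 2 and 0.18 and −0.18 in sibling 1 and sibling 2. Without sibling 1 the class median was −0.24. At an unadjusted p under 0.05 in limma, 6 of the 26 were lower and 0 higher, where this took 4.34% and 2.61% of all tested genes.

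Hexokinases trap glucose in the cell as glucose-6-phosphate. The gene hk1 stood at 246 and 183 in mutants and 423 and 281 in siblings, with a log2 fold change of −0.70 ± 0.26. Its groups did not overlap. Neither did those of hk2, another hexokinase gene, at 19 and 23 in mutants and 25 and 26 in siblings (−0.27 ± 0.34). The isomerase gene gpia, whose product turns glucose-6-phosphate into fructose-6-phosphate, had 142 and 109 in mutants and 224 and 215 in siblings (−0.81 ± 0.23, adjusted p = 0.445 in limma). Its paralog gpib had 83 and 109 in mutants and 170 and 113 in siblings, so both isomerase genes were lower in both mutant libraries.

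Phosphofructokinase catalyses the committed step of glycolysis, and all 4 of its tested genes had lower means in mutants. The platelet-type gene pfkpa had 90 and 92 in mutants and 210 and 136 in siblings, a log2 fold change of −0.89 ± 0.26 and an adjusted p of 0.502 in limma. This was the lowest fold among the tested glycolysis genes, and the 2 mutant libraries were close to each other while the siblings were spread. The other 3 overlapped between the groups, with pfkpb at −0.46 ± 0.30, the muscle-type gene pfkmb at −0.74 ± 0.36 and the liver-type gene pfkla at −0.44 ± 0.34. Summed over its 5 genes, phosphofructokinase came to 329 and 271 in mutants and 610 and 358 in siblings.

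Aldolase splits fructose-1,6-bisphosphate into triose phosphates, and its genes did not go together. The gene aldoaa had 474 and 351 in mutants and 793 and 549 in siblings (−0.69 ± 0.25), lower in both mutant libraries. Its paralog aldoab had 349 and 311 in mutants and 388 and 259 in siblings (0.06 ± 0.24), with the sibling values on either side of the mutant ones. The log2 ratio of aldoaa to aldoab within a library was 0.44 and 0.17 in mutants and 1.03 and 1.08 in siblings, without overlap.

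In the lower part of glycolysis the values were uneven. Triosephosphate isomerase, summed over tpi1a and tpi1b, came to 205 and 245 in mutants and 330 and 262 in siblings. The gene gapdh, of glyceraldehyde phosphate dehydrogenase, had 1287 and 802 in mutants and 1319 and 846 in siblings (−0.06 ± 0.30). Its spread within each group was larger than the difference between them, and its sign turned to 0.14 under quantile normalization and to 0.012 after rescaling without mitochondrial ribosomal RNA. The kinase gene pgk1, whose product makes the first ATP of the pathway, had 114 and 137 in mutants and 179 and 139 in siblings, so mutant 2 lay just below sibling 2. Phosphoglycerate mutase genes overlapped or barely differed, with pgam1a at −0.08 ± 0.30, pgam1b at 0.07 ± 0.30 and the muscle gene pgam2 at −0.27 ± 0.31.

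Enolase and pyruvate kinase, the last enzymes of glycolysis, were lower again. The muscle enolase gene eno3 had 447 and 353 in mutants and 664 and 496 in siblings (−0.53 ± 0.23), and eno1a, the gene of the widespread enolase, had 174 and 120 in mutants and 236 and 206 in siblings (−0.61 ± 0.25). In both genes each mutant value lay below each sibling value. The pyruvate kinase gene pkma had 113 and 111 in mutants and 212 and 183 in siblings, means of 112 ± 1.41 and 197.5 ± 20.5 (SD, n = 2 each). Its log2 fold change was −0.81 ± 0.22, a fold of 0.571 (limma adjusted p = 0.445), and it had the smallest unadjusted p among the glycolysis genes (0.00468). It lies on the plus strand of chromosome 18, from 907266 to 951570 in GRCz11, 483345 bases from the end of gpib, and the 107 genes are spread over 24 chromosomes with 2 pairs less than 100 kilobases apart.

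Of the glycolysis genes with a higher mean, fbp1b had the largest log2 fold change. It encodes a fructose bisphosphatase, which runs the phosphofructokinase step backwards in gluconeogenesis, and had 10 and 32 in mutants and 9 and 8 in siblings (1.01 ± 0.59). The groups did not overlap, but mutant 1 was within 2 of the siblings and mutant 2 alone was high. The 5 genes under the mean of 10 were eno1b, eno2, gck, hkdc1 and pfkma, with no value above 16.

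**Figure D2:**
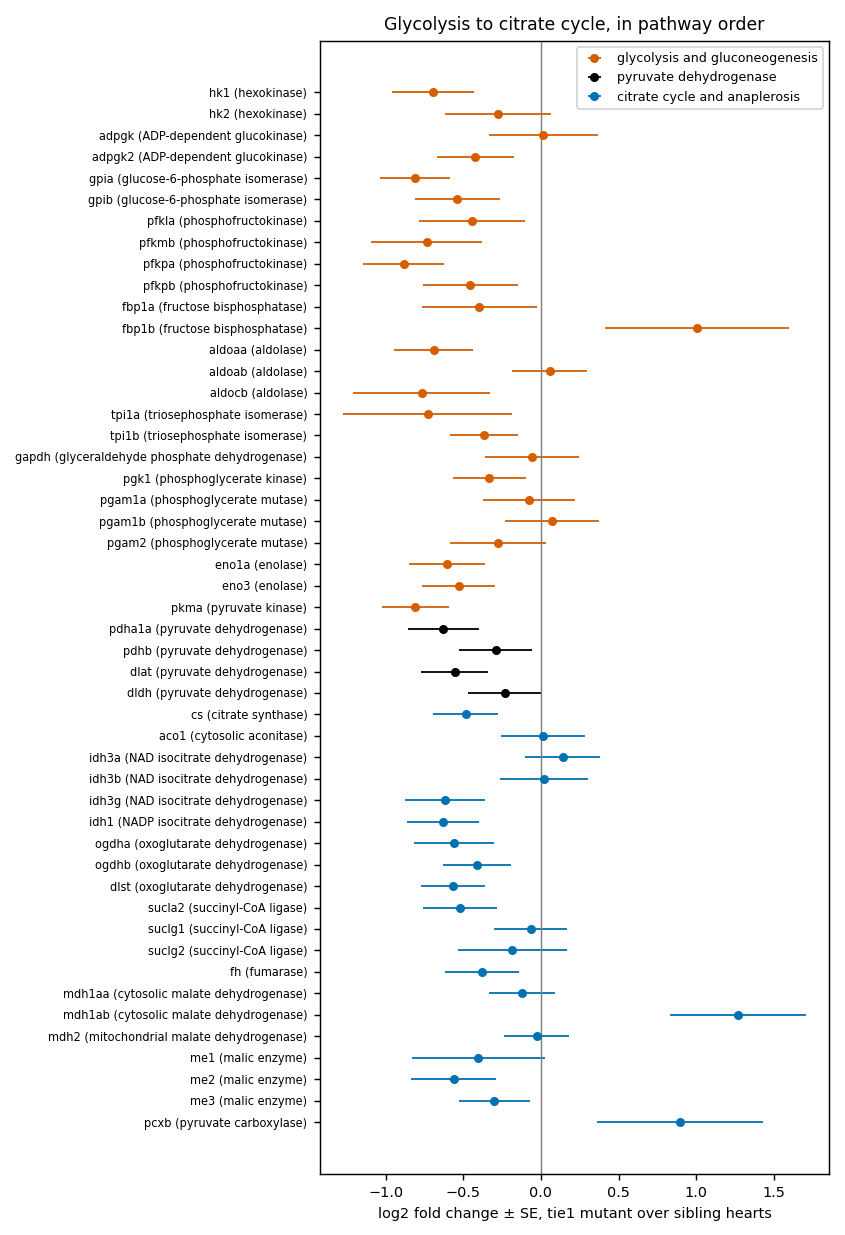
Log2 fold change ± SE (tie1 mutant over sibling hearts, x axis) of tested genes of glycolysis, pyruvate dehydrogenase and the citrate cycle, listed from glucose downwards. Most points lie left of 0 from hk1 to me3, while gapdh (−0.06), mdh2 (−0.03) and aco1 (0.01) lie at 0 and fbp1b (1.01), mdh1ab (1.27) and pcxb (0.90) lie to the right.

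Pyruvate dehydrogenase makes acetyl-CoA from pyruvate in the mitochondrial matrix. Its 4 genes were all lower in mutants, 3 without overlap (75%, against 18.3% of all tested genes). The median log2 fold change was −0.42, and the values summed to 621 and 543 in mutants and 845 and 741 in siblings. The gene of the catalytic alpha subunit, pdha1a, had 187 and 149 in mutants and 291 and 230 in siblings (−0.63 ± 0.23), and the acetyltransferase gene dlat had 159 and 136 in mutants and 227 and 207 in siblings (−0.56 ± 0.21). These were the clearest of the 4, each with an adjusted p above 0.67 in limma. The beta subunit gene pdhb had 98 and 131 in mutants and 142 and 136 in siblings (−0.29 ± 0.24). The dehydrogenase gene dldh, whose product is shared with the oxoglutarate complex and the glycine cleavage system, overlapped at 177 and 127 in mutants and 185 and 168 in siblings (−0.23 ± 0.24), and without mutant 2 its log2 fold change was 0.0057.

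All 21 genes of the citrate cycle and of the reactions that feed it (anaplerosis) were tested. In 16 the mutant mean was lower, 12 of them without overlap, and in 5 it was higher, 1 of them without overlap. The genes without overlap were 57.1% and 4.76% of the 21, against 18.3% and 15.7% of all tested genes. The class median was −0.38, a fold of 0.769, and without sibling 1 it was −0.25. The library medians were −0.37 and −0.36 in mutants and 0.12 and −0.12 in siblings. Summed, the values were 2883 and 2644 in mutants and 4091 and 3303 in siblings.

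Citrate synthase, which joins acetyl-CoA to oxaloacetate at the entry of the cycle, is encoded by cs, with 341 and 323 in mutants and 520 and 416 in siblings (−0.49 ± 0.21), lower in both mutant libraries. The cytosolic aconitase gene aco1, whose protein also binds RNA as an iron sensor, had 80 and 85 in mutants and 66 and 101 in siblings (0.01 ± 0.27), so the sibling values enclosed the mutant ones.

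The subunits of the NAD-dependent isocitrate dehydrogenase did not go together. The regulatory subunit gene idh3g had 42 and 40 in mutants and 62 and 65 in siblings (−0.62 ± 0.26), whereas idh3a, of the catalytic subunit, had 106 and 83 in mutants and 84 and 86 in siblings (0.14 ± 0.24) and idh3b stood at 0.02 ± 0.29. The NADP-dependent enzyme of the cytosol, idh1, had 76 and 80 in mutants and 110 and 134 in siblings (−0.63 ± 0.23), without overlap.

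The oxoglutarate dehydrogenase complex makes succinyl-CoA, and its genes ogdha, ogdhb and dlst were lower without overlap. Its shared gene dldh, given above, overlapped between the groups. For the first subunit, ogdha had 445 and 349 in mutants and 717 and 473 in siblings (−0.56 ± 0.26), and ogdhb stood at −0.41 ± 0.22. The succinyltransferase gene dlst had 140 and 141 in mutants and 218 and 200 in siblings (−0.57 ± 0.21). Of the succinyl-CoA ligase genes, sucla2, of the ATP-forming beta subunit, had 139 and 113 in mutants and 206 and 158 in siblings (−0.52 ± 0.24), while suclg1 and suclg2 overlapped between the groups at −0.07 ± 0.23 and −0.19 ± 0.35. The fumarase gene fh had 139 and 128 in mutants and 204 and 148 in siblings (−0.38 ± 0.24).

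At the malate step the picture changed. The mitochondrial malate dehydrogenase gene mdh2 had 226 and 224 in mutants and 249 and 211 in siblings (−0.03 ± 0.21), overlapping. Among the cytosolic enzymes, mdh1aa stood at −0.12 ± 0.21, and its paralog mdh1ab had 24 and 20 in mutants and 9 and 8 in siblings (1.27 ± 0.44, adjusted p = 0.614 in limma). Both mutant values of mdh1ab were more than 2 times both sibling values, the largest positive log2 fold change among the 94 tested genes, at low values and with reads that could be shared with its paralog. The malic enzyme genes me2 and me3, whose products turn malate into pyruvate in mitochondria, were lower without overlap (−0.56 ± 0.28 and −0.30 ± 0.23). Pyruvate carboxylase, which refills the cycle with oxaloacetate, is encoded by pcxb, with 22 and 47 in mutants and 28 and 10 in siblings. The succinate dehydrogenase genes, which belong to the respiratory chain as well, lay on both sides, with sdha at −0.45 ± 0.24, sdhb at −0.44 ± 0.25, sdhc at 0.27 ± 0.33 and sdhdb at 0.10 ± 0.37.

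**Figure D3:**
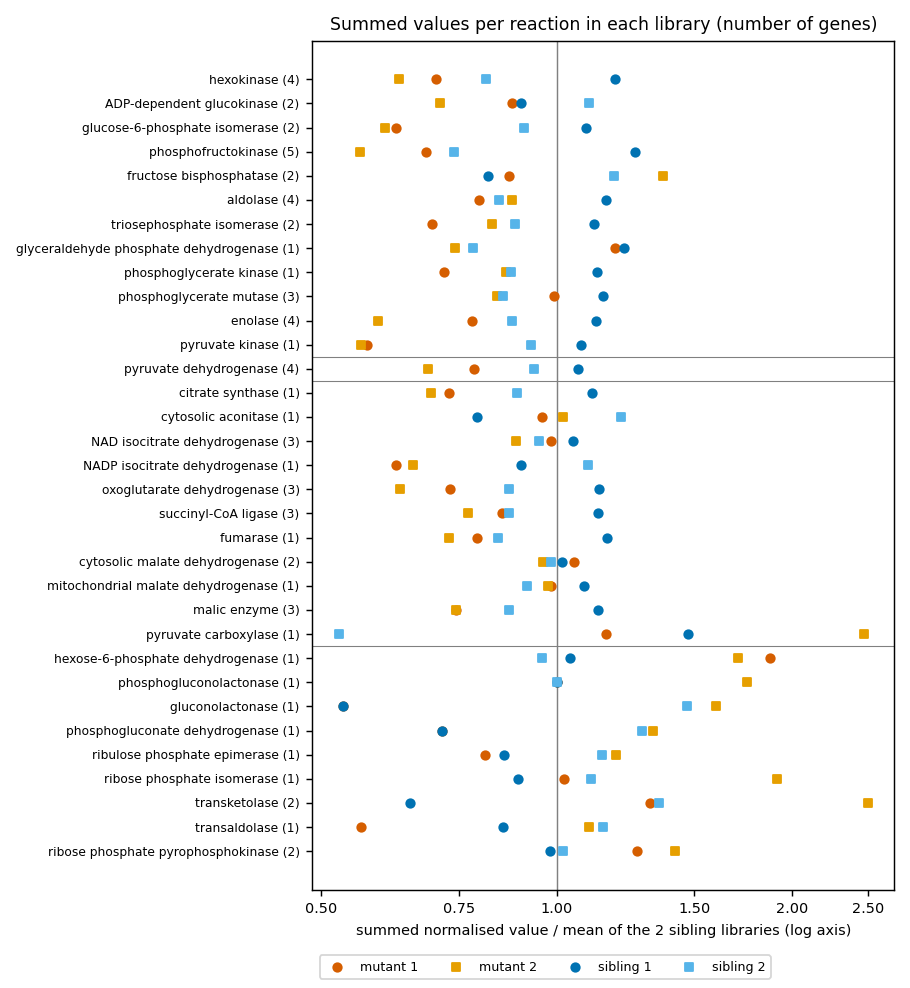
Normalised values summed over the genes of each reaction, divided by the mean of the 2 sibling libraries (x axis, log scale), for each library, with the number of genes in brackets. From top to bottom the blocks are glycolysis, pyruvate dehydrogenase, the citrate cycle and the pentose phosphate pathway. Both mutant libraries lie left of both siblings in 8 of 12 reactions of glycolysis and gluconeogenesis and 6 of the 11 drawn for the citrate cycle. They lie right of them in 2 of the 9 drawn for the pentose phosphate pathway. Of all tested single genes, 18.3% and 15.7% did so, and no such share was computed for summed reactions. Some reactions hold 1 gene, and some margins are small, as for phosphoglycerate kinase (137 in mutant 2, 139 in sibling 2).

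Among the pentose phosphate genes, 9 of 12 were tested, 6 with a higher and 3 with a lower mean in mutants, and the median log2 fold change was 0.31, a fold of 1.24. The library medians were 0.04 and 0.46 in mutant 1 and mutant 2 and −0.20 and 0.20 in sibling 1 and sibling 2, so sibling 2 lay above mutant 1, and without mutant 2 the class median was 0.04. The groups did not overlap in 3 of the higher genes and 0 of the lower ones. These were 33.3% and 0% of the 9, against 15.7% and 18.3% of all tested genes, and with 9 genes such shares are coarse.

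The oxidative branch, which makes NADPH, did not move as a unit. The gene pgd, of the NADPH-forming phosphogluconate dehydrogenase, had 36 and 67 in mutants and 36 and 65 in siblings (0.02 ± 0.39). In pgd the libraries with the same replicate number were nearly equal, and the difference lay within groups. The gene of the hexose-6-phosphate dehydrogenase of the endoplasmic reticulum, h6pd, had 45 and 41 in mutants and 25 and 23 in siblings, means of 43 ± 2.83 and 24 ± 1.41 (SD, n = 2 each), with a log2 fold change of 0.82 ± 0.30, a fold of 1.76 (limma adjusted p = 0.673). It was the pentose phosphate gene with the smallest unadjusted p, 0.0234, and both mutant libraries were high.

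The non-oxidative branch exchanges sugar phosphates with glycolysis. The transketolase gene tktb had 137 and 288 in mutants and 73 and 151 in siblings (0.91 ± 0.41), with mutant 1 below sibling 2. Its log2 fold change was 0.38 without mutant 2, 0.39 without sibling 1, 1.45 without mutant 1 and 1.43 without sibling 2. The isomerase gene rpia had 24 and 45 in mutants and 21 and 26 in siblings (0.48 ± 0.38), and the transaldolase gene taldo1 had 25 and 49 in mutants and 38 and 51 in siblings (−0.32 ± 0.37). All 3 overlapped between the groups and were higher in mutant 2 than in mutant 1. Downstream, the genes of ribose phosphate pyrophosphokinase, which activates ribose for nucleotide synthesis, were higher without overlap. They were prps1a, with 87 and 120 in mutants and 83 and 82 in siblings (0.31 ± 0.25), and prps1b, with 50 and 33 in mutants and 23 and 28 in siblings (0.66 ± 0.33). Without mutant 2 the log2 fold change of prps1a was 0.076, and without mutant 1 that of prps1b was 0.37. Markers of several other cell types mostly had log2 fold changes above 0, where 49.7% of all tested genes did. Macrophage markers were higher in 3 of 3 tested (sums of 108 and 161 in mutants, 63 and 89 in siblings), neuronal markers in 4 of 5 (366 and 184 in mutants, 249 and 82 in siblings) and skin markers in 7 of 8 (12996 and 15966 in mutants, 12330 and 16921 in siblings). The neuronal and skin sums overlapped between the groups and the macrophage sums did not. Without overlap 2 macrophage, 1 neuronal and 1 skin marker were higher and 1 neuronal marker was lower, where 15.7% and 18.3% of all tested genes were. The skin markers counted as higher include cyt1 at 0.02 and krtt1c19e at 0.003. None of these markers was at 0 in any library, and their part in the pentose phosphate values was not tested.

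In the serine, glycine and one-carbon class 10 of 12 genes were tested, 5 lower and 5 higher, with a median of 0.03. The genes of the folate enzymes that split serine into glycine and a single-carbon unit had log2 fold changes of opposite sign. The mitochondrial one, shmt2, had 40 and 64 in mutants and 82 and 68 in siblings (−0.55 ± 0.30), and the cytosolic one, shmt1, had 34 and 43 in mutants and 16 and 37 in siblings (0.63 ± 0.42), overlapping. The sizes rested on single libraries, with shmt2 at −0.22 without mutant 1 and −0.88 without mutant 2, and shmt1 at 0.046 without sibling 1 and 1.21 without sibling 2. The serine synthesis genes phgdh, psat1 and psph overlapped between the groups, at 0.31 ± 0.42, 0.19 ± 0.31 and −0.16 ± 0.25. Catalase, which removes the hydrogen peroxide of peroxisomal oxidases, is encoded by cat, with 31 and 33 in mutants and 45 and 44 in siblings (−0.46 ± 0.28), and adh5, of formaldehyde oxidation, had 34 and 49 in mutants and 43 and 56 in siblings (−0.26 ± 0.31).

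The remaining 27 genes include those that join amino acids, fatty acids and propionate to the cycle, beside other steps and a gene without an assigned reaction. Of 24 tested, 16 were lower, 13 of them without overlap, and 8 higher, 0 without overlap. The genes without overlap were 54.2% and 0% of the 24, against 18.3% and 15.7% of all tested genes. The median was −0.20, which was −0.31 without mutant 1 and −0.30 without sibling 1. The smallest unadjusted p of all the carbon metabolism genes, 0.00271, belonged to hadhaa, which encodes the alpha subunit of the trifunctional protein of mitochondrial fatty acid oxidation. It had 92 and 99 in mutants and 201 and 165 in siblings, with a log2 fold change of −0.93 ± 0.22 or a fold of 0.527 (limma adjusted p = 0.388). Its paralog hadhab had 170 and 151 in mutants and 201 and 205 in siblings (−0.34 ± 0.21), and acadm, of a medium-chain acyl-CoA dehydrogenase, stood at −0.36 ± 0.25.

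Second by unadjusted p in this class was got1, of the cytosolic aspartate aminotransferase in the malate-aspartate shuttle, which brings glycolytic reducing power into mitochondria. It had 232 and 219 in mutants and 472 and 341 in siblings (−0.83 ± 0.23, adjusted p = 0.445 in limma), and both mutant values were low. The mitochondrial partner genes were also lower without overlap, got2a with 52 and 36 in mutants and 82 and 65 in siblings (−0.74 ± 0.29) and got2b at −0.24 ± 0.25. Glutamate dehydrogenase genes differed in sign, with glud1a at 79 and 85 in mutants and 123 and 126 in siblings (−0.60 ± 0.22), and glud1b at 223 and 309 in mutants and 271 and 186 in siblings (0.22 ± 0.26). Valine breakdown was represented by aldh6a1, with 178 and 173 in mutants and 197 and 198 in siblings (−0.17 ± 0.21), where the values within a group nearly coincided. The unnamed gene si:ch211-217a12.1 had 30 and 9 in mutants and 45 and 33 in siblings (−1.17 ± 0.52), and its log2 fold change was −0.35 without mutant 2 and −1.98 without mutant 1.

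Zebrafish keep many of these enzymes as paralog pairs. Of 15 pairs among the 107 genes, 12 had both members tested, and in 6 both were lower in mutants, in 1 both were higher and in 5 the signs were opposite. Reads could be shared between close copies, so the split within a pair is less certain than its sum. The log2 ratio of mdh1aa to mdh1ab was 2.56 and 2.70 in mutants and 3.96 and 4.08 in siblings, and that of glud1a to glud1b was −1.49 and −1.85 in mutants and −1.13 and −0.56 in siblings. For hadhaa to hadhab it was −0.88 and −0.60 in mutants and 0.00 and −0.31 in siblings. In these 3 pairs the ratios did not overlap between the groups. Nor did they in some other pairs, among them aldoaa and aldoab, pfkpa and pfkpb, eno1a and eno1b, and got2a and got2b. Ratios of further pairs overlapped, such as gpia to gpib and ogdha to ogdhb. No such share was computed for other pairs of genes.

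Some genes of carbon metabolism were high in 1 library alone, most of them in mutant 2 or sibling 1. With a value of at least 10 and at least 1.5 times that of each other library, a rule chosen after the values were seen, mutant 2 held 10 of the 107 genes (9.35%) and mutant 1 2 (1.87%), against 8 for sibling 1 (7.48%) and 1 for sibling 2 (0.935%). Over the whole table the same rule took 4.71% of genes in mutant 2, 3.55% in mutant 1, 3.14% in sibling 1 and 1.70% in sibling 2. The 8 genes high in sibling 1 were hk1, gpib, pfkpa, pfkpb, pfkmb and tpi1a of glycolysis and ogdha and me2 of the citrate cycle class. All 8 had a lower mean in mutants, which a rule asking for a high sibling 1 favours, so this count is no separate evidence. In 6 of them the groups did not overlap, so both mutant libraries lay below sibling 2 as well. Some of these margins were small, as in gpib, with 109 in mutant 2 and 113 in sibling 2. In tpi1a, with 9 and 9 in mutants and 24 and 10 in siblings, sibling 2 was within 1 of the mutants.

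Among the genes high in mutant 2 was gck, of glucokinase, the hexokinase of liver and pancreas in mammals, with 0 and 16 in mutants and 1 and 0 in siblings, and the hexokinase-like gene hkdc1 had 1 and 16 in mutants and 1 and 1 in siblings. The peroxisomal glyoxylate genes hao1 and agxta, known from mammalian liver, had 3 and 19, and 1 and 15, in mutants, and 1 and 0, and 0 and 2, in siblings.

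In each of these 4 genes mutant 1 lay among the siblings or within 2 of them. Others of the 10 were fbp1b, tktb, rpia, ehhadh (a peroxisomal fatty acid oxidation gene, 4 and 19 in mutants and 7 and 11 in siblings) and pcxb. Liver and yolk markers were higher in 7 of 7 tested, but without overlap in 1, where 49.7% and 15.7% of all tested genes were. They summed to 2999 and 7736 in mutant 1 and mutant 2 and 2826 and 2339 in sibling 1 and sibling 2. The liver marker fabp10a had 0 and 20 in mutants and 0 and 1 in siblings, and the transferrin gene tfa 152 and 882 in mutants and 146 and 219 in siblings. The part of liver or yolk tissue in the values of mutant 2 was not tested. Without mutant 2, 70 of the 94 tested genes were lower and the median of the 94 was −0.30.

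**Figure D4:**
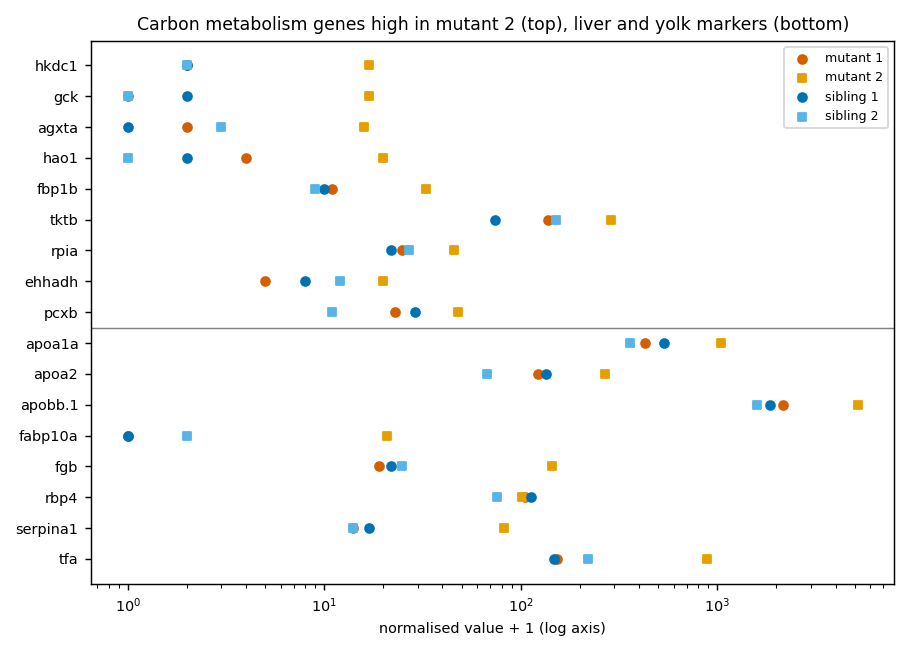
Normalised value + 1 (x axis, log scale) in each library, for 9 of the 10 carbon metabolism genes that were high in mutant 2 (above the line) and for 8 liver and yolk markers (below). Mutant 2 is the rightmost point for all 9 genes, which the rule that chose them requires. For the markers, which that rule did not choose, it is rightmost in 7 of 8. The exception is rbp4 (104 and 101 in mutants, 112 and 75 in siblings), and mutant 1 lies near the siblings.

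Genes of neighbouring steps outside the 107 were taken from lists of transporters, regulators and related pathways. Of 77 found, 57 were tested, 36 with a lower and 21 with a higher mean in mutants. Without overlap 20 were lower and 3 higher, where 18.3% and 15.7% of all tested genes were. None passed the adjusted threshold in limma. In limma, 7 were lower and 1 higher at an unadjusted p under 0.05, where this took 4.34% and 2.61% of all tested genes. Of the 3 with the smallest unadjusted p, 2 act on glycogen, the stored form of glucose. The glycogen phosphorylase gene pygmb had 640 and 435 in mutants and 1990 and 1243 in siblings (−1.57 ± 0.29, adjusted p = 0.194 in limma). The glycogen synthase gene gys1 had 66 and 63 in mutants and 186 and 132 in siblings (−1.27 ± 0.25, adjusted p = 0.218), and in both genes each mutant value lay below each sibling value. Other glycogen genes differed from these. The liver-type phosphorylase gene pygl had 10 and 120 in mutants and 9 and 15 in siblings (1.53 ± 0.91), high in mutant 2 alone, while pygb (−0.15 ± 0.27) and the branching enzyme gene gbe1b (0.25 ± 0.69) overlapped. Over the whole list of glycolysis and glycogen regulators, 7 of 11 tested were lower, 4 of them without overlap, and 4 higher, 0 without overlap.

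Regulators of pyruvate dehydrogenase were lower in 5 of 5 tested and without overlap in 3, where 50.3% and 18.3% of all tested genes were. Among them were the kinase genes pdk2b and pdk4, whose products switch the enzyme off. They had 12 and 20 and 71 and 76 in mutants, and 35 and 44 and 148 and 102 in siblings (−1.28 ± 0.37 and −0.73 ± 0.26). The phosphatase gene pdp1 was also lower without overlap, with 27 and 17 in mutants and 29 and 40 in siblings (−0.64 ± 0.37). Further kinase genes overlapped between the groups. They were pdk1 (−0.43 ± 0.49) and pdk2a, with 260 and 160 in mutants and 279 and 188 in siblings (−0.17 ± 0.29). Of the 3 genes with the smallest unadjusted p, the gene with the smallest belongs to hypoxia signalling, which controls glycolytic genes. It is hif1al2, a gene of the HIF alpha family in the zebrafish annotation. In mutants it had 21 and 32, and in siblings 87 and 85 (−1.69 ± 0.30, adjusted p = 0.174 in limma). For epas1b, of the HIF-2 alpha subunit, the values were 15 and 24 in mutants and 51 and 41 in siblings (−1.22 ± 0.35). These were the lowest of the hypoxia list, of which 13 were tested, 8 lower and 5 higher, with a median of −0.13. The growth factor gene vegfaa, a known hypoxia target, was higher without overlap, with 18 and 28 in mutants and 10 and 13 in siblings (0.92 ± 0.43). Genes of lactate dehydrogenase, the mitochondrial pyruvate carrier and the monocarboxylate transporters with their partner bsg (7 tested) had a median of −0.09, and folate cycle genes outside the 107 (13 tested) one of 0.30. Glucose transporters were mostly too low to test, with 2 of 9 past the mean of 10.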

How the data were processed

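Libraries were made from total RNA with a stranded kit meant for tiny RNA amounts, per the labels' protocols. Named without roles in the submitters' processing notes are STAR 2.4.0a, featureCounts 1.4.5-p1, Subread and FastQC, beside GRCz11 (danRer11) as the build. The authors deposited 1 table of normalised, rounded values, treated here as a score with no fixed unit. The sources used here give neither the normalisation method nor the strand setting or gene filter. As the values are not reads, no count test was used and no counting interval is given.

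Values were analysed as log2(value + 1), which understates changes at low values. The 12118 genes whose mean reached 10 were tested with limma 3.58.1 in R 4.3.3 (mean-variance trend, Benjamini-Hochberg adjustment over all of them, threshold 0.05). The fit was tested on simulated data. Steps were assigned to the 107 genes by hand, for 5 of them after the values were seen, as were reactions and paralog pairs. Named in each class are the 3 genes with the highest mean and the 3 with the smallest p, further genes with a log2 fold change of at least 1 in size and no overlap. A few genes that enter the counts and medians are not reported here by name. Other genes named were chosen for their place in the pathway after their values were seen. The genes and lists were chosen with earlier results of these data known, so no list is tested. Values of different genes also depend on transcript length, so levels are compared only within a gene or as a ratio within a library. Alternatives covered the pseudocount, the filter, scaling (the trimmed mean of M values, TMM, written out after its published formula, quantile, without mitochondrial ribosomal RNA), limma's robust setting, the replicate block and each library left out.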

Additional observations from a re-analysis of the deposited data

How the results depend on the processing

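No gene of carbon metabolism passed an adjusted p under 0.05 in limma in any of the 13 alternatives, while the count over all genes moved from 0 to 13 with a mean of at least 50, 7 after TMM scaling, 5 after rescaling without mitochondrial ribosomal RNA and 16 with the robust setting. With no filter on low values, 4 of 107 genes of carbon metabolism were higher at an unadjusted p under 0.05 in limma. This was 3.74%, against 3.05% of all genes in that fit, and the serine, glycine and one-carbon median was 0.24. With a mean of at least 50, 1 gene (1.61%) was higher by the same rule, against 2.03% of all genes in that fit. The serine, glycine and one-carbon median was then −0.35, and the median over the 62 genes left was −0.36. Rescaling without mitochondrial ribosomal RNA put the median of the 94 at −0.20 and that of all genes at 0.06. The log2 fold change of tie1, −1.97, had an adjusted p of 0.0431 with a mean of at least 50, 0.0413 with the robust setting and 0.00138 with the replicate block, all in limma. The gapdh value was 0.14 under quantile normalization and 0.012 without mitochondrial ribosomal RNA. Each library was also left out in turn (the lone library of a group is then assumed to vary like the others). This gave 6 to 16 genes of carbon metabolism at an unadjusted p under 0.05 in limma, of which 4 to 14 were lower. In these fits the same threshold took 3.21% to 5.9% of all tested genes, and 1.27% to 3.25% as lower. Without sibling 2 it took 16 of the 94 (17.0%), against 5.9% of all tested genes. Medians then ranged from −0.57 to −0.36 for pyruvate dehydrogenase, −0.44 to −0.25 for the citrate cycle, −0.18 to 0.023 for serine, glycine and one-carbon genes and −0.31 to −0.16 for the other steps. In the same fits gapdh ranged from −0.40 to 0.28, dldh from −0.47 to 0.0057, pgd from −0.42 to 0.46, glud1b from −0.046 to 0.49 and psph from −0.33 to 0.012. Same-numbered libraries deviated together with a correlation of 0.198 over 12118 genes, but nothing in the labels says what a number shares. A fit with the replicate block called 95 genes over the table and 0 of carbon metabolism, with 26 of 94 (27.7%) at an unadjusted p under 0.05, against 11.4% of all genes in that fit. The files give no depth, so how far it limits the low genes is unknown.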

Other observations

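Beside carbon metabolism, the genes annotated in KEGG to oxidative phosphorylation and encoded in the nucleus were read from the same table. That annotation is not limited to the respiratory chain. Of 101 tested, 53 had a lower and 48 a higher mean in mutants, with a median log2 fold change of −0.04. The groups did not overlap in 25 of the lower and 9 of the higher ones. These were 24.8% and 8.91% of the 101, against 18.3% and 15.7% of all tested genes. Their values summed to 7678 and 7061 in mutants and 8569 and 8180 in siblings. The 51 tested genes from glycolysis to the citrate cycle had 41 lower, a median of −0.40 and no overlap in 29 of the lower ones (56.9% of the 51). Whether the groups of genes differ from each other was not tested. Among the 107 genes, the 13 with a mitochondrial Gene Ontology term had 12 lower and a median of −0.49. The 41 tested ones with other terms only had 26 lower and a median of −0.19, while 40 tested genes had no term. This split follows the annotation, which misses some mitochondrial enzymes. The highest log2 fold change of the 13 was 0.02, so idh3a (0.14) and pcxb (0.90) were not among them. Genes of mitochondrial enzymes with lower values may be missed as well.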
